A study of Mus musculus with 4 samples.

Results

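Polyamine synthesis and turnover were followed through 10 genes, chosen by symbol, among the 18256 gene symbols counted in each library of mouse bone marrow macrophages. The genes are Odc1, Azin1, Oaz1, Oaz2, Amd1, Srm, Sms, Sat1, Smox and Paox. All 10 were present in every file and all 10 passed the filter on low counts that left 12966 genes for testing. The macrophages were grown from the marrow of wild-type (WT) mice for 7 days with 20 ng/ml of macrophage colony-stimulating factor (MCSF), which drives marrow cells to become macrophages. The M0 group (2 libraries) stayed unstimulated, and the M1 group (2 libraries) received 20 ng/ml interferon-gamma (IFN-γ) with 100 ng/ml bacterial lipopolysaccharide (LPS) for 24 h. It is not stated if MCSF was still present during stimulation. M1 names the inflammatory state that these agents induce. The labels give no strain, age or sex, and do not say whether replicates came from separate mice or cultures, so p-values cover only the spread between these libraries, possibly a technical one. The design asks how stimulated and unstimulated macrophages differed in these transcripts.

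The polyamines putrescine, spermidine and spermine are small, positively charged molecules that bind nucleic acids and are needed for growth and translation. Ornithine decarboxylase makes putrescine from ornithine, and the synthases for spermidine and spermine then add aminopropyl groups that come from decarboxylated S-adenosylmethionine. Antizymes bind ornithine decarboxylase, direct it to the proteasome and slow polyamine uptake, and antizyme inhibitor draws antizyme away from it. Turnover runs through acetylation by the SAT1 enzyme followed by oxidation by the PAOX enzyme, or through direct oxidation of spermine by the SMOX enzyme. In macrophages the ornithine for this route comes from arginase, which shares its substrate arginine with nitric oxide synthase. Much of this control acts on translation and protein stability, which gene-level RNA counts do not measure.

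Counts over genes summed to between 15921466 and 18987705 per library, and 3 counts equalled 0.144 to 0.185 CPM (counts per 1000000, with each library total multiplied by a TMM scaling factor). No library was a copy of its replicate: counts of the same group were further apart than sampling allows (chi-square per degree of freedom 9.06 in M0, 12.9 in M1). All 8 listed activation markers, Nos2 and Il12b among them, were higher in M1, and the 8 macrophage markers summed to 20682 and 22989 CPM in M0 and to 29692 and 29207 CPM in M1. Of these 8 markers 4 were higher and 2 lower (Mertk 2.92-fold and Cd68 1.81-fold), and Lyz2, which made up most of the sum, did not pass. T and NK cell markers summed to at most 1.25 CPM in any library, and Cd3g and Ncr1 had no count anywhere. B and plasma cell markers summed to 6.76 and 5.79 CPM in M0 and to 4.80 and 1.91 CPM in M1. Cd79b made up most of that sum in each library, and Ms4a1 had no count anywhere. Neutrophil markers summed to 344 and 356 CPM in M0 and to 382 and 356 CPM in M1, with 5 of 8 lower and 2 higher. Dendritic cell markers summed to 191 and 170 CPM in M0 and 67.3 and 76.1 CPM in M1 (4 of 6 tested lower, 2 higher). Itgax alone made up most of that sum, at 181 and 161 CPM in M0 and 57.9 and 69.4 CPM in M1. Stromal markers summed to 709 and 687 CPM in M0 and 443 and 495 CPM in M1 (4 of 5 lower, 1 higher). Proliferation markers summed to 998 and 934 CPM in M0 and to 855 and 868 CPM in M1 (3 of 8 lower, 1 higher). Erythroid and megakaryocyte markers summed to 19.8 and 25.6 CPM in M0 and to 75.5 and 60.1 CPM in M1 (1 of 2 tested higher, 0 lower). Pf4, the gene called higher, made up most of that sum in each library. Mast cell and basophil markers summed to at most 1.91 CPM in any library. The part of these cells in the results below was not tested. In bulk RNA a change in the number of cells of a type and a change in RNA per cell cannot be told apart.

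Transcripts for the acetylation route of polyamine turnover fell about 5-fold in M1, while those for the first steps of synthesis rose by less than 1.5-fold. Of the 10 genes, 4 were higher in M1 (Odc1, Amd1, Srm and Smox) and 4 were lower (Oaz1, Sms, Sat1 and Paox), by the edgeR quasi-likelihood test with adjusted p under 0.05. Azin1 and Oaz2 did not pass. Over all tested genes 24.2% were called higher and 24.0% lower, or 48.2% in either direction. Against that background the counts of 4 and 4 among 10 genes are a description, and nothing particular to these genes is read from them. Their median log2 fold change was -0.07, against -0.02 for all tested genes. The libraries of the groups did not overlap for 9 of the 10 genes, against 74.9% of tested genes. Sat1 and Paox were the 2 genes called lower with a log2 fold change of -1 or lower, a rule that 11.6% of tested genes met. The split between rises and falls depends on how the libraries are scaled: with library totals, which shift the tested genes as a whole by a median of -0.25 on the log2 scale, Srm alone was called higher and 5 of the 10 lower, and over all tested genes 2026 were higher and 4776 lower. Upper-quartile factors shift all genes by -0.10 and left 2 of the 10 higher and 4 lower. Without M0 replicate 1 the calls were Oaz1, Srm, Sat1 and Paox, and without M0 replicate 2 they were Srm, Sat1 and Paox. Calls over all genes fell from 3140 higher and 3108 lower to 1691 and 1463 without M0 replicate 1 and to 1832 and 1549 without M0 replicate 2, in fits where the lone M0 library is assumed to vary like the M1 libraries.

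**Figure D1:**
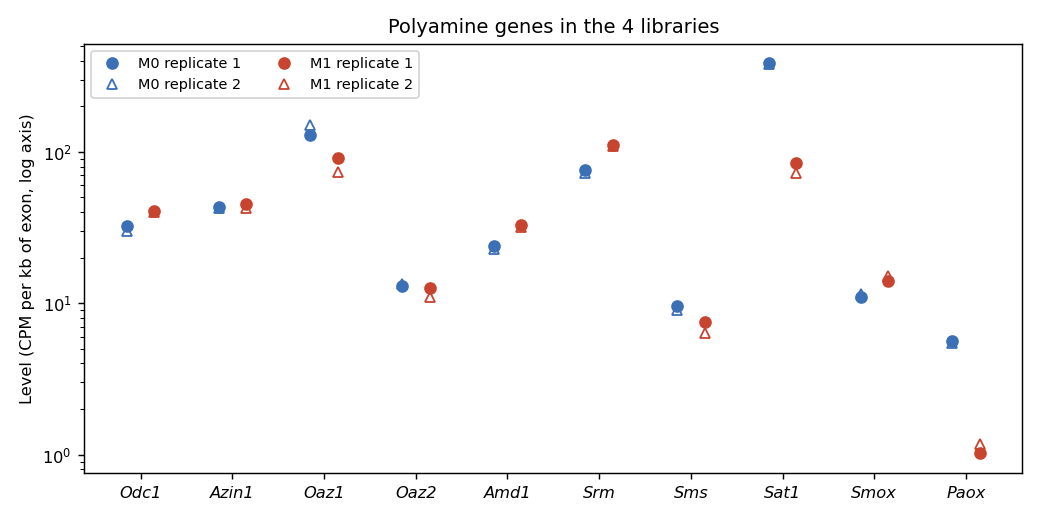
Level of each of the 10 genes in each library, as CPM per kb of exon on a log axis; M0 libraries are blue and M1 libraries red, with filled circles for replicate 1 and open triangles for replicate 2. Sat1 stood at 384 and 379 in M0 and at 84.1 and 72.6 in M1, and Paox at 5.61 and 5.45 against 1.02 and 1.18, while the points of Azin1 overlap.

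**Figure D2:**
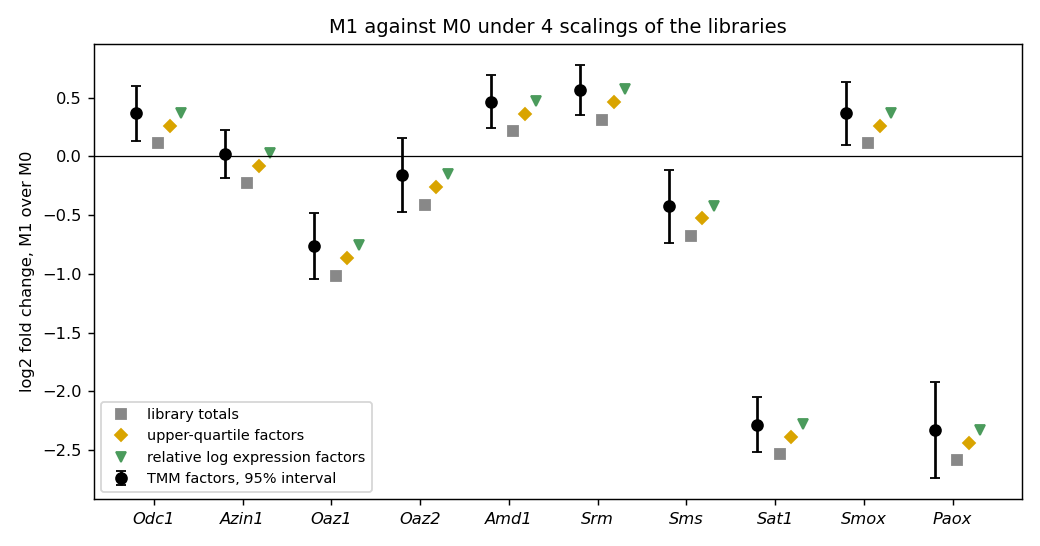
Log2 fold change of M1 over M0 for each gene, with TMM factors and its 95% interval (black) and with 3 other scalings of the libraries (colours). Sat1 and Paox lie below -2 under each of the 4 scalings, while Odc1, Amd1, Srm and Smox lie above 0 but move toward it with library totals.

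Odc1 encodes ornithine decarboxylase, the enzyme of the first step (chromosome 12, 17544808 to 17551502 in GRCm38.p6). Its transcript stood at 71.2 and 66.6 CPM in M0 and at 89.2 and 88.6 CPM in M1. Both M1 libraries were above both M0 libraries, and the fold was 1.29 (log2 fold change 0.37, SE 0.11, edgeR adjusted p = 0.014). This rise was not past the threshold with library totals (log2 fold change 0.11, adjusted p = 0.394) or upper-quartile factors (0.26, adjusted p = 0.0596), nor without M0 replicate 1 (adjusted p = 0.0847) or M0 replicate 2 (0.134), and the adjusted p ran from 0.000347 to 0.394 over 15 alternatives. Processed pseudogenes match 62.8% of the Odc1 transcript at 95% identity or more, so its counts can miss or gain reads.

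Azin1 encodes antizyme inhibitor, a relative of ornithine decarboxylase that has no decarboxylase activity and binds antizyme in its place (chromosome 15, 38487430 to 38519294). It was at 218 and 216 CPM in M0 and at 226 and 215 CPM in M1. The groups overlapped, and the log2 fold change was 0.02 with a 95% interval from -0.18 to 0.23 (edgeR adjusted p = 0.86). An antisense gene covers 7.12% of its exons, and its reads cannot be told apart if strand was not used.

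Oaz1 and Oaz2 encode antizymes, whose full proteins are made only when the ribosome shifts frame at a stop codon at high polyamine levels. Oaz1 was called lower in M1 and Oaz2 was not, and the stretch around that stop codon is shown for both, as RNA-sense DNA letters from GENCODE M21 transcripts Oaz1-206 and Oaz2-203, with the TGA stop codon in capitals.
Oaz1: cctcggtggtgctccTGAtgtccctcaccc
Oaz2: cctctgtggtgctccTGAtgcccctcaccc
The stretches of 30 bases differ at 2 positions. Oaz1 (chromosome 10, 80826656 to 80829290) was at 139 and 162 CPM in M0 and at 98.2 and 79.1 CPM in M1. All M1 values were below the M0 values, and Oaz1 was 1.70-fold lower (log2 fold change -0.76, SE 0.13, edgeR adjusted p = 0.000501). This was the member with the widest spread in M0, and without M0 replicate 2 the change of -0.65 did not pass (adjusted p = 0.0634, the highest over the 15 alternatives, with a lowest of 3e-17). Oaz2 (chromosome 9, 65676548 to 65690300) was at 26.6 and 27.2 CPM in M0 and at 25.7 and 22.5 CPM in M1. The M1 libraries lay below the M0 libraries but Oaz2 did not pass (log2 fold change -0.16, 95% interval -0.48 to 0.16, edgeR adjusted p = 0.398). With library totals it passed as lower (-0.41, adjusted p = 0.0325), and its adjusted p reached 0.825 over the 15 alternatives. A pseudogene matches 63.6% of the Oaz1 transcript and another matches 25.6% of that of Oaz2.

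Amd1 encodes adenosylmethionine decarboxylase, which supplies the aminopropyl donor (chromosome 10, 40287458 to 40302188). It rose from 77.0 and 72.7 CPM in M0 to 105 and 102 CPM in M1. The groups were apart, by a fold of 1.38 (log2 fold change 0.47, SE 0.10, edgeR adjusted p = 0.00327). The call was lost with library totals (0.21, adjusted p = 0.108), without M0 replicate 1 (0.0543) and without M0 replicate 2 (0.0754), over alternatives with adjusted p from 1.98e-06 to 0.108. Amd2 matches 99.8% of the Amd1 transcript at up to 99.6% identity, so reads cannot be assigned between them with certainty. The counts listed under Amd2 stood at 15.9 and 15.0 CPM in M0 and at 20.2 and 18.6 CPM in M1, which did not pass (adjusted p = 0.118). With the counts of Amd1 and Amd2 summed, an alternative chosen after the data were seen, the log2 fold change was 0.44 (adjusted p = 0.00379).

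Srm encodes spermidine synthase (chromosome 4, 148591513 to 148594619). Its level was 102 and 97.3 CPM in M0 and 149.6 and 146 CPM in M1. The M1 libraries were above the M0 libraries by 1.48-fold (log2 fold change 0.57, SE 0.10, edgeR adjusted p = 0.000639). Srm was the only member called higher in all 15 alternatives, down to 0.31 with library totals. Sms, the spermine synthase gene (chromosome X, 157443851 to 157492287), went the other way, from 35.6 and 33.6 CPM in M0 to 27.9 and 23.6 CPM in M1. Its groups did not overlap, and it was 1.34-fold lower (-0.42, SE 0.14, edgeR adjusted p = 0.0291). DESeq2 did not call Sms (adjusted p = 0.0538), nor did the fits without M0 replicate 1 (0.195), M0 replicate 2 (0.132) or M1 replicate 2 (0.17), over a range from 0.00191 to 0.195. No other transcript matched that of Srm, and processed pseudogenes matched 29.6% of that of Sms.

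Odc1 and Amd1, the genes of the 2 decarboxylases, rose together, and the bases before their start sites are shown here from RefSeq windows of GRCm38.p6, 5′ to 3′ on the strand of the gene. The stretches are chr12:17544623-17544793 on the plus strand and chr10:40302189-40302438 on the minus strand, and each ends 1 base before the first base of the gene in GENCODE M21 or RefSeq, whichever lies further upstream (for Odc1 the GENCODE start at 17544794). Capitals mark GC boxes (GGGCGG on either strand), the only motif of those searched, by exact letters, that either stretch holds. The TATA box was searched as TATAAA only, so near forms such as tatataag in the Amd1 stretch were not marked.
Odc1: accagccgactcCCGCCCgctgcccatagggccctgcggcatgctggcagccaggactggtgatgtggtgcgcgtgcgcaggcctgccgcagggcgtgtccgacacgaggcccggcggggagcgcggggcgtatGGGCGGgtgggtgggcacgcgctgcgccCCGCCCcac
Amd1: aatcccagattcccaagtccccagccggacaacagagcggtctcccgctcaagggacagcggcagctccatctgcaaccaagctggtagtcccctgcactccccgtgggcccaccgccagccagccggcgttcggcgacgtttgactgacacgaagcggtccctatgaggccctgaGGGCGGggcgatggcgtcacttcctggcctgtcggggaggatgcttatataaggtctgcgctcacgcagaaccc
In the whole windows, which run from 250 bases before to 50 bases after a start, Odc1 held 4 GC boxes and Amd1 held 1, and 35.7% of 32851 windows of this length held at least 1. RefSeq windows were found for 8 of the 10 genes, with none listed for Azin1 and Srm. The E-box CACGTG, bound by MYC and MAX, was present in a window of Sms, 196 bases before the start, and in 7.15% of all windows. It was in no listed window of the other 7 genes, and sequence beyond these windows, introns included, was not searched.

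Sat1 encodes spermidine/spermine acetyltransferase, the enzyme that commits polyamines to breakdown or export (chromosome X, 155213126 to 155216449). It had the highest level per length of the 10 genes in M0. Its transcript stood at 454 and 448 CPM in M0 and at 99.5 and 85.9 CPM in M1. The groups lay far apart, and Sat1 was 4.87-fold lower in M1 (log2 fold change -2.28, SE 0.11, 95% interval -2.52 to -2.05, edgeR adjusted p = 1.67e-08). Of the tested genes 4.15% had a lower log2 fold change. The fall ranged from -2.54 to -2.17 over the 15 alternatives and passed in each of them. Pseudogenes match 44.4% of the Sat1 transcript.

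Paox encodes the peroxisomal oxidase that acts on acetylated polyamines, downstream of SAT1 (chromosome 7, 140115735 to 140134334). It was at 26.1 and 25.4 CPM in M0 and at 4.74 and 5.47 CPM in M1. Both M1 libraries were well below both M0 libraries, and the fold was 5.04 (log2 fold change -2.33, SE 0.18, 95% interval -2.74 to -1.93, edgeR adjusted p = 1.43e-06). Its smallest count was 77, which carries a counting error of 11.4%. Gm19680, a processed pseudogene on chromosome 1 that is also listed in the files, matches 29.2% of the longest Paox transcript at up to 99.9% identity. Gm19680 was at 17.0 and 20.5 CPM in M0 and at 8.68 and 5.66 CPM in M1, a log2 fold change of -1.38 (edgeR adjusted p = 0.000526). With both counts summed, an alternative chosen after the data were seen, the log2 fold change was -1.86 (adjusted p = 1.87e-06). Over 15 alternatives the fall of Paox passed in each, with adjusted p up to 0.00471.

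Since Sat1 and Paox act in sequence and fell together, the bases before their start sites are shown from the same RefSeq table. They are chrX:155216450-155216699 on the minus strand and chr7:140125407-140125656 on the plus strand, the latter before the first of 2 listed start sites of Paox and inside the span of the RefSeq gene, which begins further upstream. Neither overlaps an exon in GENCODE M21, and capitals again mark GC boxes.
Sat1: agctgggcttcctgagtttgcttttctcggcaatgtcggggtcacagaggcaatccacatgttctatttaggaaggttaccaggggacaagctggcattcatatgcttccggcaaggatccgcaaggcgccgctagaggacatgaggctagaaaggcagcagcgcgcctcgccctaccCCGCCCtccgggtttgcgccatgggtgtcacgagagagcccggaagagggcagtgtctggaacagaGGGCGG
Paox: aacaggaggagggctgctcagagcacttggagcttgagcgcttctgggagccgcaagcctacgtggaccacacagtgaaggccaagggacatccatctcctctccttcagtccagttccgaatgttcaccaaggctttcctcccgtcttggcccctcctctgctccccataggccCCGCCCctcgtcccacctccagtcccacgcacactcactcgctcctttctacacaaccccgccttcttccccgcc
In the whole windows Sat1 held 2 GC boxes and each Paox window held 3. None of the other 8 motifs was found in them (TATA box TATAAA, cyclic AMP element TGACGTCA, GAS TTCNNNGAA, ISRE core TTCNNTTTC, NF-kB GGGANTTCC, AP-1 TGANTCA, antioxidant element TGACNNNGC and the E-box, each on both strands). These are present in 1.68% to 13.6% of all windows, and their absence says only that these letters are not in this stretch.

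Smox encodes spermine oxidase, which turns spermine back into spermidine and releases hydrogen peroxide (chromosome 2, 131491858 to 131525183). Unlike Sat1 and Paox it was not lower in M1, at 34.3 and 35.8 CPM in M0 and at 43.4 and 46.8 CPM in M1. The M1 libraries lay above the M0 libraries by a fold of 1.29 (log2 fold change 0.37, SE 0.12, edgeR adjusted p = 0.029). Of the 8 calls this was lost most often, in 7 of 15 alternatives. Among them were library totals (0.11, adjusted p = 0.461), upper-quartile factors (adjusted p = 0.0987), DESeq2 (0.0501) and a replicate block (0.0592), and the fits without M0 replicate 1 (0.17), M0 replicate 2 (0.117) or M1 replicate 2 (0.106), over a range from 0.00527 to 0.461.

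Ratios of 2 genes within a library do not depend on how libraries are scaled, and 9 such ratios of counts were compared. Odc1 had 0.512 and 0.411 counts per Oaz1 count in M0, and 0.908 and 1.12 in M1. The ratio was 2.20-fold higher in M1, a log2 difference of 1.14 against a pooled SD of 0.22. Azin1 counts per Oaz1 count went from 1.57 and 1.33 to 2.30 and 2.71. Oaz2 counts per Oaz1 count went from 0.191 and 0.168 to 0.261 and 0.285. Relative to Oaz1, then, Odc1, Azin1 and Oaz2 all stood higher in both M1 libraries than in either M0 library. These ratios share the fall of Oaz1 (log2 fold change -0.76) and are not separate results. Azin1 (0.02) and Oaz2 (-0.16) did not pass on their own. The ratio of Srm to Sms was 2.87 and 2.89 in M0 and 5.35 and 6.17 in M1, so the transcripts of the 2 aminopropyl transferases moved apart 1.99-fold. Sat1 had 6.37 and 6.73 counts per Odc1 count in M0 and 1.12 and 0.969 in M1, a ratio 6.30-fold lower. Smox per Paox rose from 1.31 and 1.41 to 9.17 and 8.55, or 6.51-fold. The ratio of Sat1 to Paox overlapped between groups, at 17.4 and 17.7 in M0 and 21.0 and 15.7 in M1, a log2 difference of 0.05 (pooled SD 0.21). For Odc1 per Azin1 the log2 difference was 0.34 (pooled SD 0.05) and for Odc1 per Amd1 it was -0.10 (pooled SD 0.02). In 8 of the 9 ratios the groups did not overlap, and each of these had the smallest two-sided p that an exact permutation test of 2 against 2 libraries can give (0.333, or 0.375 adjusted over the 9 ratios), so no ratio can pass a threshold of 0.05 in this design. The count of 8 is a description only, as the ratios share members and the share over other pairs of genes was not computed. Of single tested genes, 74.9% did not overlap. The exact permutation p of Sat1 per Paox was 1.

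**Figure D3:**
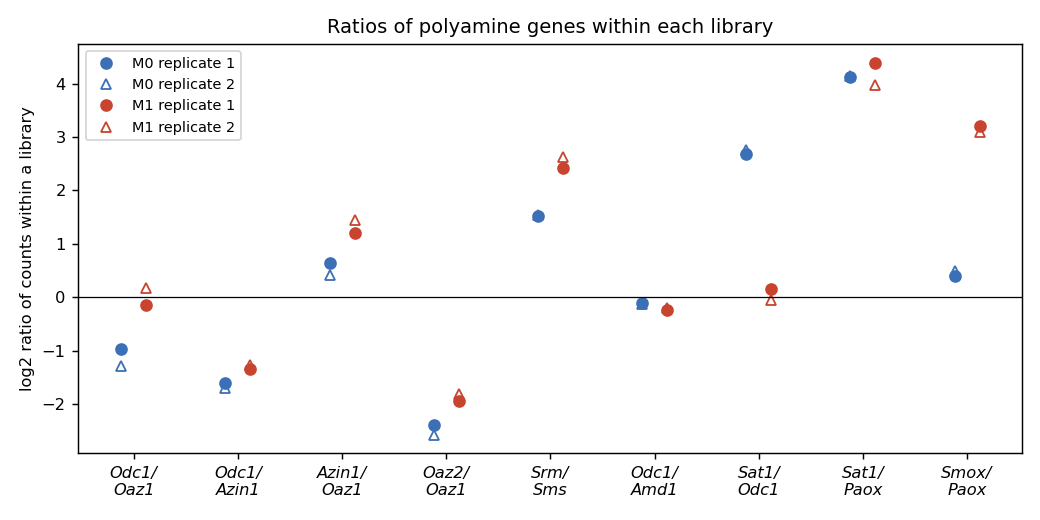
Log2 ratio of counts of 2 genes within each library, for 9 pairs; M0 libraries are blue and M1 libraries red, with circles for replicate 1 and triangles for replicate 2. Sat1 per Odc1 moved from 2.67 and 2.75 in M0 to 0.16 and -0.04 in M1, while Sat1 per Paox stayed near 4 in both groups.

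Levels of different genes are compared per kb of exon (CPM per kb, from the union of GENCODE M21 basic exons, which need not match the models the authors counted). In M0 the order was Sat1 (381 ± 3.39, SD of 2 libraries), Oaz1 (140.2 ± 15.0), Srm (74.5 ± 2.50), Azin1 (43.1 ± 0.305), Odc1 (31.2 ± 1.49), Amd1 (23.4 ± 0.968), Oaz2 (13.2 ± 0.213), Smox (11.3 ± 0.336), Sms (9.31 ± 0.374) and Paox (5.53 ± 0.114). No neighbours in that order overlapped between libraries. In M1 the leading gene was Srm (110.4 ± 2.06), followed by Oaz1 (82.5 ± 12.6) and Sat1 (78.3 ± 8.12), and these last 2 overlapped. Azin1 (43.8 ± 1.62), Odc1 (40.3 ± 0.194), Amd1 (32.3 ± 0.665), Smox (14.6 ± 0.766), Oaz2 (11.8 ± 1.10), Sms (6.94 ± 0.822) and Paox (1.10 ± 0.112) followed without overlap. Summed over Odc1, Amd1, Srm and Sms, the synthesis enzymes stood at 142 and 135 CPM per kb in M0 and at 192 and 187 in M1. The turnover enzymes Sat1, Smox and Paox summed to 400.4 and 396 CPM per kb in M0 and to 99.1 and 88.9 in M1, and Sat1 made up 95.8% and 95.7% of that sum in M0 and 84.8% and 81.7% in M1. Synthesis over turnover was 0.355 and 0.340 in M0 and 1.94 and 2.11 in M1 (exact permutation p = 0.333, the smallest possible).

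The genes around the pathway were described from lists, whose counts are to be read against the 24.2% of all tested genes called higher and the 24.0% called lower. For arginine and ornithine, 7 of 12 tested genes were higher and 2 lower (3 not past the threshold; 6 and 3 with library totals), with a median log2 fold change of 0.77 against -0.02 for all tested genes. Slc7a2, an arginine transporter, rose from 57.6 and 50.9 CPM to 1399 and 1622 CPM (log2 fold change 4.80, edgeR adjusted p = 2.68e-10). Ass1, which helps to remake arginine from citrulline, rose from 0.623 and 0.348 to 15.0 and 14.1 CPM (4.86). Nos2, the inducible nitric oxide synthase, had 6 counts in M0 replicate 1, none in M0 replicate 2 and 51.8 and 53.5 CPM in M1 (8.33, or 7.49 without M0 replicate 2; without M0 replicate 1 the M0 group has no count). Arg1, an arginase that makes ornithine, rose from 0.959 and 0.985 to 6.77 and 4.67 CPM (2.55, SE 0.40, edgeR adjusted p = 0.000354). Arg1 kept its call in all 13 alternatives, on 37 counts in M0 and 186 in M1. Arg2, the other arginase gene, had more counts than Arg1 in every library, but with 118 against 110 in M1 replicate 1 the order there is uncertain. Arg2 rose from 3.07 and 3.71 to 7.26 and 7.87 CPM (1.16, edgeR adjusted p = 0.00557) and kept its call in 12 of 13 alternatives.

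Spermidine is also the donor for hypusine, a modified lysine of the translation factor eIF5A. Of the 4 genes of that step 2 were higher, 1 was lower and 1 did not pass. Eif5a itself rose from 471 and 531 CPM to 793 and 726 CPM (log2 fold change 0.60, edgeR adjusted p = 0.000555). Dhps, the enzyme that transfers the spermidine fragment, rose from 23.3 and 24.3 to 39.4 and 36.7 CPM (0.68, edgeR adjusted p = 0.00154). Dhps no longer passed when M0 replicate 1 was left out (adjusted p = 0.0512, with a lowest of 1.79e-06 over 13 alternatives). The second eIF5A gene, Eif5a2, fell from 24.5 and 21.2 to 6.34 and 5.54 CPM (-1.94). Among 5 tested genes linked to polyamine transport 2 were higher and 2 lower (2 and 3 with library totals). Slc18b1, a vesicular polyamine transporter, had 33 and 40 counts in M0 and 1 and 2 counts in M1. M0 over M1, per library total and TMM factor, this is 20.8 times as many (95% interval from 6.83 to 103 for counting error only). Cav1, which codes for caveolin-1, rose from 9.40 and 11.2 to 43.8 and 23.4 CPM (1.71), but not past the threshold without M0 replicate 1 (adjusted p = 0.0739) or M0 replicate 2 (0.0546), the highest of 13 alternatives that went down to 1.59e-23. Slc3a2 rose from 188 and 202 to 350 and 355 CPM (0.85, edgeR adjusted p = 2.22e-05) and kept its call in all 13 alternatives. Atp13a3, a polyamine-importing ATPase, fell from 304 and 239.5 to 138 and 162 CPM (-0.86, edgeR adjusted p = 0.000258). Its lysosomal relative Atp13a2 was at 392 and 422 CPM in M0 and at 404 and 389 CPM in M1 and did not pass (edgeR adjusted p = 0.779), though library totals called it lower (log2 fold change -0.29).

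For S-adenosylmethionine supply and methionine salvage, 3 of 13 tested genes were higher and 4 lower, and with library totals 1 was higher and 8 lower. With TMM factors none of those called had a log2 fold change of 1 or more in size; the nearest, Adi1 of the methionine salvage pathway, was at -0.95, and at -1.20 with library totals. In the MYC network, whose transcription factors act on growth genes, 4 of 10 tested genes were higher and 3 lower (3 and 5 with library totals). Myc rose from 12.8 and 11.2 to 18.1 and 19.6 CPM (0.65, edgeR adjusted p = 0.00982), and this call was lost with library totals (0.0801), without M0 replicate 1 (0.0602) and without M0 replicate 2 (0.0952), over a range from 0.00064 to 0.0952. Mycn stood well above Myc in every library, at 280 and 270 CPM in M0 and 250 and 242 CPM in M1. It did not pass (-0.16, edgeR adjusted p = 0.173), and upper-quartile factors called it lower (-0.27). Lower were Mxd4 (from 56.1 and 50.9 to 11.1 and 13.6 CPM, -2.12), Mxi1 (-1.42) and Mnt (-1.13), which encode repressors that pair with MAX. Mxd1, another repressor that pairs with MAX, was higher (0.74, edgeR adjusted p = 0.00199), and so were Max itself (0.68) and Mlx (1.27). Without M0 replicate 1 neither Mxd1 (adjusted p = 0.0822, the highest of 13 alternatives, with a lowest of 9e-08) nor Max (0.0558, likewise the highest, with a lowest of 2.6e-13) passed. Of 5 tested aldehyde dehydrogenase genes 3 were lower and 0 higher, with 3 at an unadjusted p under 0.05. The call of Aldh3a2 (-0.28, edgeR adjusted p = 0.0461) held in 5 of 13 alternatives, and without it 2 were lower. Aldh9a1, which oxidises aminoaldehydes from polyamine breakdown, fell from 190.1 and 199 to 70.0 and 72.6 CPM (-1.45, edgeR adjusted p = 4.29e-07), and Aldh2 fell from 265 and 288 to 102 and 106 CPM (-1.41). None of 4 tested paralogues of the 10 genes passed in edgeR, DESeq2 or limma-voom, and 0 had an unadjusted p under 0.05. Median log2 fold changes of the 6 lists other than the arginine list ran from -0.39 to 0.33.

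**Figure D4:**
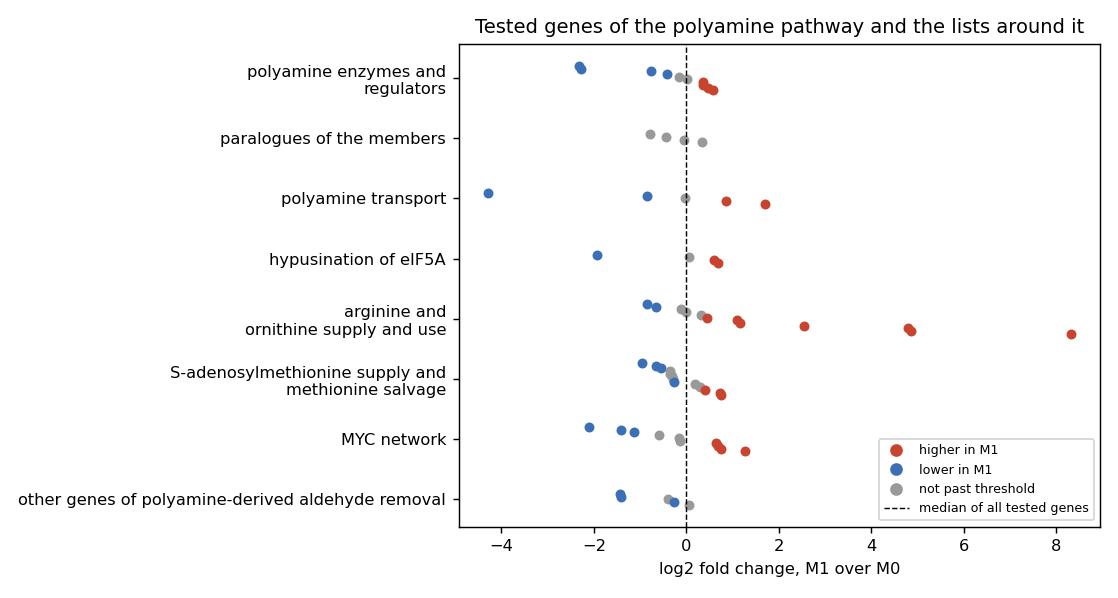
Log2 fold change of M1 over M0 for every tested gene of the polyamine list and of 7 lists around it, with genes called higher in red, lower in blue and not past the threshold in grey; the dashed line is the median of all tested genes (-0.02). Nos2 stands at 8.33 in the arginine list, and the polyamine genes span -2.33 to 0.57.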

How the data were processed

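RNA-seq libraries of M0 and M1 macrophages (2 each) were made from total RNA depleted of ribosomal RNA, as the labels' protocols state. The authors deposited raw counts per gene symbol. The submitters' processing notes name featureCounts, Subread 2.0.1, mm10, DESeq2 1.30.1 and R 4.0.4. Aligner, annotation, strand setting and filters are not given in the sources used here. Whether multimapping reads were counted is not given either, so genes with near-identical copies are uncertain.

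Genes were filtered with filterByExpr (minimum count 10, minimum total 15; 12966 kept, 5290 removed), scaled with TMM (factors 1.10, 1.08, 0.911 and 0.922) and tested with the edgeR 4.0.16 quasi-likelihood test in R 4.3.3, group only, and p-values were adjusted by Benjamini-Hochberg over the whole table (threshold 0.05). Standard errors were derived from the fitted log2 fold change and its F statistic. The common biological coefficient of variation was 10.9% with 2 residual degrees of freedom. The procedure was tested on simulated data in which every gene was given that same coefficient of variation. Spread that differs between genes was not simulated, so the test does not vouch for the calls here. Alternatives used other scalings, DESeq2 1.42.0, limma-voom (limma 3.58.1), other filters (none, or 1 CPM in 2 libraries and 50 counts in total), a replicate block and each library left out. Similar transcripts were found with blastn in GENCODE M21 (at least 100 bases at 95% identity). Motifs were searched in RefSeq promoter windows.

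The members and lists were chosen with earlier results of these data known. All 10 members are named; of each list, called genes with a log2 fold change of at least 1 in size, up to 3 per direction. Arg1, Arg2, Eif5a, Dhps, Slc3a2, Atp13a2, Atp13a3, Myc, Mycn, Max, Mxd1, Aldh3a2 and Adi1 were named outside that rule after their values were seen. So were Mertk, Cd68, Lyz2, Itgax, Cd79b, Pf4, Amd2 and Gm19680.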

Additional observations from a re-analysis of the deposited data

How the results depend on the processing

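The calls of Srm, Sat1 and Paox passed in all 15 alternatives, and no call of a member reversed (Azin1, never called, ran from -0.23 to 0.07). The number of members called, 8, was 6 to 8 under the alternatives that keep all libraries and 3 to 8 when a library was left out. Members called higher, 4, became 2 with upper-quartile factors and 1 with library totals, and 1 to 4 when a library was left out; members called lower, 4, became 2 to 4 when a library was left out. In the leave-one-out fits the list of S-adenosylmethionine supply had 3 to 8 calls against 7, and the MYC network 4 to 7 against 7, both lowest without M0 replicate 1. The summed level of synthesis enzymes, a log2 difference of 0.46, was 0.40 without division by exon length and 0.20 with library totals, and that of turnover enzymes, -2.09, was -1.84 and -2.34. The 9 ratios moved by less than their pooled SD when 0.5 counts were added.

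Replicate numbers are shared by the groups, but no label says what they pair, and deviations of same-numbered libraries from their group means had a correlation of -0.11. With the replicate block the members called were 7 (Smox lost, adjusted p = 0.0592), and 2957 genes were higher and 2975 lower. With the crossed replicate block, added after the data were seen, 3648 genes were higher and 3627 lower, the members called were 8, and the S-adenosylmethionine list had 11 calls.

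Depth limits Paox most, at 77 and 89 counts in M1.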

Other observations

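The 10 genes took up a smaller part of the M1 libraries as a whole. They held 0.130% and 0.128% of all counts in M0 and 0.0792% and 0.0751% in M1. Sat1 alone went from 0.0499% and 0.0486% to 0.00906% and 0.00792% of all counts. The other 9 genes held 0.0802% and 0.0798% in M0 and 0.0701% and 0.0672% in M1. With TMM factors the same 9 genes summed to 730 and 736 CPM in M0 and to 770 and 728 CPM in M1, and the groups overlapped. The shares use library totals with no scaling factor and were computed after the data were seen.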
